A study of Mus musculus with 6 samples.

Results

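The list of m6A peaks from Fto knockout brain was read at 5 genes of dopamine and glutamate signalling: the dopamine receptor genes Drd1, Drd2 and Drd3, the potassium channel gene Kcnj6 (Girk2) and the NMDA receptor subunit gene Grin1. Each gene was given by a window in the mm9 genome, and a listed peak belonged to the gene when its midpoint lay in that window. Of 29950 listed peaks, 28 fell into the 5 windows, which together span 430 kb. Every gene had at least 1 peak, so 0 of the 5 genes were without one, although with a minimum length of 150 bp 1 gene, Drd3, had none. As background, tiles of the genome as long as the windows held a peak in 3.71% (8 kb) to 45.1% (254 kb) of cases, with no regard to genes, and the share over all genes was not computed.

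The libraries came from adult C57BL/6 mice with a global Fto knockout, in which every cell lacks the gene. Per the labels, tissue was neural tissue of midbrain and striatum, depleted of ribosomal RNA, and 3 MeRIP libraries (2 rounds of immunoprecipitation with an m6A antibody) stand beside 3 input libraries without it. All 6 libraries led to 1 list that holds positions only, with no height, strand, p-value or value per replicate. No replicate error, depth or control group can therefore be given for any count below, nothing here bears on the effect of the knockout, and midbrain and striatum cannot be told apart. The tissue label could not be checked against marker genes, because no mm9 gene annotation was used here.

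As background, m6A is a methyl mark that the Mettl3-Mettl14 complex places on adenosines of nascent transcripts, often near stop codons, in 3′ untranslated regions and in long exons, and Fto is a demethylase that can remove it. Dopamine neurons of the midbrain project to the striatum, where Drd1 and Drd2 are expressed mainly by different medium spiny neurons, of the direct and the indirect pathway. D2 receptors on the dopamine neurons themselves act as autoreceptors that open potassium channels containing the Kcnj6 product GIRK2. NMDA receptors on the same neurons carry excitatory input, and each of them contains the subunit encoded by Grin1.

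Peaks that touched end to end were merged into stretches of continuous enrichment. The 28 peaks formed 17 stretches covering 4400 bp, with 6 stretches in Drd1, 5 in Kcnj6, 3 in Grin1, 2 in Drd2 and 1 in Drd3. In all 17 the number of listed peaks was the length divided by 200 bp and rounded up, so the number of peaks adds nothing to the length. Within the windows, Drd1 held stretches across the middle of its window, and Drd2 and Drd3 held them near the 3′ border alone. Grin1 held them near both borders. Kcnj6 held a stretch near the 5′ border, a pair far inside the window and a pair at 93.7% and 94.8% of it. In bp that last pair was not close to the 3′ border, ending 15975 and 13175 bp before it.

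**Figure D1:**
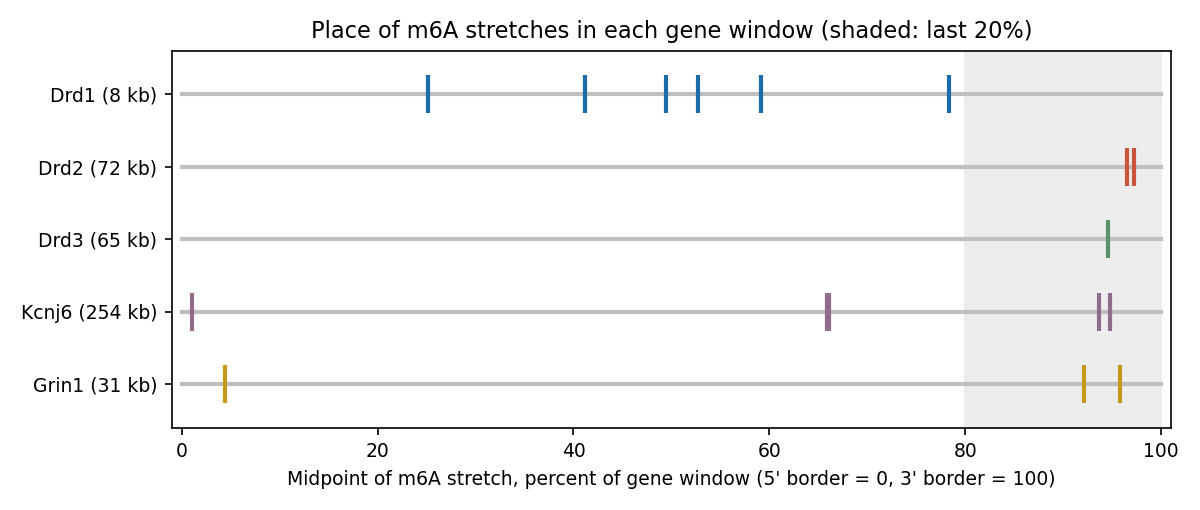
Midpoints of the 17 m6A stretches (vertical marks) along each gene window, in percent of the window from its 5′ border (0) to its 3′ border (100), with the last 20% shaded. Of the 17 stretches, 7 lie in the last 20%, and Drd1 alone has none there. The 2 stretches of Kcnj6 at 65.9% and 66.1% appear as 1 mark.

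Drd1 encodes the D1 dopamine receptor, which couples to stimulatory G proteins and raises cyclic AMP in direct-pathway neurons of the striatum. It held 6 stretches in the shortest window (chromosome 13, 54145000 to 54153000, 8 kb, minus strand). Its count was the highest of the 5 when touching peaks were merged, but with peaks up to 100 bp apart merged Drd1 and Kcnj6 had 5 each, with a minimum length of 150 bp 4 each, and with one of 200 bp Drd1 had 3 and Kcnj6 4. In the direction of transcription, the first stretch lay at 54150926 to 54151050 and was 125 bp long. The longest, of 550 bp, followed at 54149426 to 54149975.

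The middle of the Drd1 group was dense. A stretch of 175 bp at 54148951 to 54149125 and one of 225 bp at 54148676 to 54148900 were separated by a gap of 50 bp. The next, of 425 bp at 54148051 to 54148475, lay 200 bp further on. The last, of 125 bp at 54146676 to 54146800, stood apart by 1250 bp. The 6 stretches thus spread over 4375 bp, of which 37.1% was enriched.

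Set against the whole list, the Drd1 window was among the fuller ones of its size. Chromosomes 1 to 19 and X were divided into 319356 tiles of 8 kb, of which 3.71% held at least 1 stretch and 0.0407% held 6 or more. Among the 11850 tiles with a stretch, 1.10% held 6 or more, and the median was 1. A total of 1625 bp or more, as in Drd1, was covered in 133 tiles (0.0416%). These tiles are placed without regard to genes, while the Drd1 window was placed on a gene, so the shares describe the list and are no test. The same 6 stretches can also be counted without a window. Among 10944 clusters of stretches at most 5 kb apart, 236 (2.16%) held 6 or more stretches, as that of Drd1 did. Every cluster holds a stretch, so the 2.16% stands beside the 1.10% of tiles with a stretch. It is no separate support, and with peaks up to 100 bp apart merged Drd1 had 5 stretches.

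The place of these stretches relative to the 3′ end of Drd1 depends on how the end is drawn. None lay in the last 20% of the window, and the nearest, at 78.3% of the way, lay just before it. Yet the window is so short that all 6 stretches were within 5925 bp of its 3′ border, the nearest at 1675 bp. The coding sequence of Drd1 lies in a single exon, as background, but which stretches fall in coding sequence or in untranslated regions was not analysed here.

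**Figure D2:**
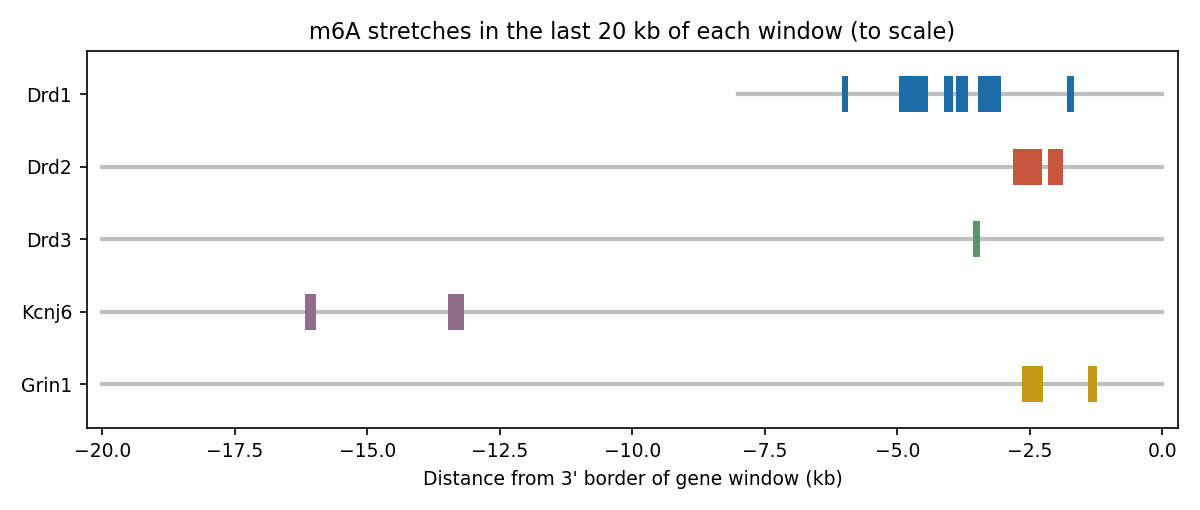
Stretches (filled boxes, to scale) in the last 20 kb of each gene window, by distance in kb from the 3′ border; the Drd1 window is 8 kb long and appears whole. The plotted stretches of Drd2, Drd3 and Grin1 lie within 5 kb of the border, and those of Kcnj6 end 13175 bp and 15975 bp before it.

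Drd2 encodes the D2 receptor, which couples to inhibitory G proteins and serves both indirect-pathway neurons and, as autoreceptor, the dopamine neurons. Its window (chromosome 9, 49146000 to 49218000, 72 kb, plus strand) held 5 listed peaks in 2 stretches. The first, of 550 bp, lay at 49215176 to 49215725, and the second, of 275 bp, at 49215851 to 49216125, with a gap of 125 bp between them. Both lay close to the 3′ border, at 96.5% and 97.2% of the window. The 69175 bp before the first stretch had no listed peak.

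Both Drd2 stretches were longer than the list median of 200 bp. Only 4.21% of all 19404 stretches in the list were 550 bp or longer, and 26.84% were 275 bp or longer. Of the tiles of 72 kb, 21.3% held at least 1 stretch and 12.5% held 2 or more, and the median tile with any held 2, as Drd2 did. The 825 bp covered were reached by 4.97% of tiles, and by 23.4% of the tiles with a stretch. In the RefSeq table (GRCm38.p6), the long noncoding gene Gm46111 overlaps the 3′ part of Drd2. The list has no strand, and whether Gm46111 reaches the stretches in mm9 was not checked. To which of the 2 genes the stretches belong therefore cannot be told apart here.

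Drd3 encodes the D3 receptor, a close relative of D2 that is expressed mainly in the ventral striatum. It had the least of the 5 genes: a single stretch of 125 bp at 43821426 to 43821550 in its window (chromosome 16, 43760000 to 43825000, 65 kb, plus strand). That stretch was 1 listed peak and lay at 94.6% of the window, 3450 bp from the 3′ border. Of all stretches in the list, 23.1% were as short or shorter, and the shortest were 100 bp. A tile of 65 kb held at least 1 stretch in 19.8% of cases, and the median tile with any held 2 stretches and 375 bp. Drd3 was below both medians. Low transcript level, low depth and low methylation cannot be told apart as sources of a small count in this list, and neither can fewer cells of a type and less RNA per cell in tissue RNA.

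In the windows of Drd2 and Drd3, which encode D2-like receptors, all covered bases lay in the last 20% of the window and the body before it had no listed peak. The covered length was 825 bp in Drd2 and 125 bp in Drd3, in windows of 72 and 65 kb. For Drd3 this rests on its single stretch of 125 bp, which a minimum length of 150 bp removes, and for Drd2 on stretches that may belong to Gm46111. Drd1 had 0 bp in the last 20% of its much shorter window. The stretches ended 1675 to 5925 bp before the 3′ border in Drd1, 1875 and 2275 bp in Drd2 and 3450 bp in Drd3. All 6, 2 and 1 lay within 10 kb, a distance chosen after seeing the data. For Drd1 this was fixed in advance, because its whole window is 8 kb long. The distances therefore cannot show whether the 3 receptor genes are alike. Whether differences between these genes exceed the variation between mice could not be tested on 1 list.

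**Figure D3:**
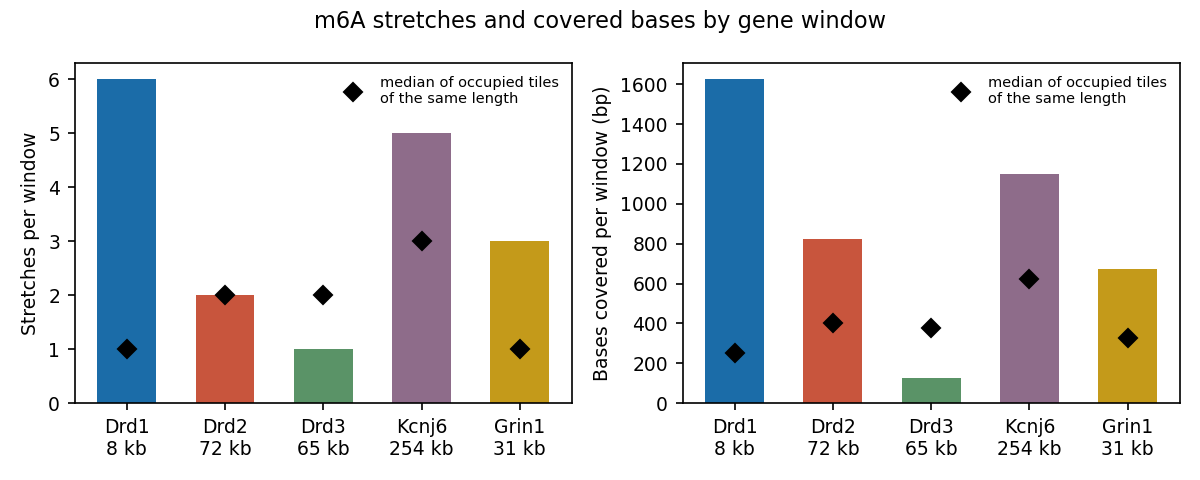
Number of stretches (left) and bases covered in bp (right) in each gene window (bars), beside the median of tiles of the same length that held at least 1 stretch (diamonds); there is 1 list, so no error bars. Drd1, with 6 stretches and 1625 bp, lies farthest above its median (1 stretch, 250 bp), and Drd3, with 1 stretch and 125 bp, lies below its own.

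Kcnj6 encodes GIRK2, a subunit of the potassium channels that G protein βγ subunits open when inhibitory receptors such as D2 are active, and a common marker of midbrain dopamine neurons. Its window is by far the longest (chromosome 16, 94968000 to 95222000, 254 kb, minus strand), and its 7 peaks formed 5 stretches at 3 separate places. At the 5′ side, a stretch of 125 bp lay at 95219101 to 95219225, at 1.1% of the window. The next 164300 bp had no listed peak.

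The second place in Kcnj6 was inside the gene window. A stretch of 325 bp at 95054476 to 95054800 and one of 200 bp at 95054076 to 95054275 lay 200 bp apart, at 65.9% and 66.1% of the window. After a further 69900 bp without a peak came the third place, with stretches of 200 bp at 94983976 to 94984175 (93.7%) and of 300 bp at 94981176 to 94981475 (94.8%). These were 2500 bp apart. None of the 5 stretches was within 10 kb of the 3′ border, where each of the other 4 genes had at least 1. For Drd1 that follows from the length of its window, 8 kb.

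Kcnj6 thus had 2 stretches (500 bp, 43.5% of its covered bases) in the last 20% of its window and 3 before it. For its size its content was not rare: 45.1% of tiles of 254 kb held at least 1 stretch, 14.5% held 5 or more, and 13.1% had 1150 bp or more covered. Per length of window it had 0.197 stretches per 10 kb, between 0.154 in Drd3 and 0.278 in Drd2, with 0.968 in Grin1 and 7.5 in Drd1. Exons and introns were not told apart, so these are densities along the genome and not along transcripts. The Kcnj6 transcript is known to be spliced into forms with different 3′ ends. Which form carries which stretch was not analysed here.

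Grin1 encodes GluN1, the subunit that every NMDA-type glutamate receptor needs and that binds the co-agonist glycine. Its window (chromosome 2, 25145000 to 25176000, 31 kb, minus strand) held 4 peaks in 3 stretches. The first was 100 bp long, the shortest length in the list, and lay at 25174576 to 25174675, at 4.4% of the window. After 26925 bp without a peak, a stretch of 400 bp lay at 25147251 to 25147650 (92.1%). A stretch of 175 bp at 25146226 to 25146400 (95.8%) followed at a distance of 850 bp.

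Of the 675 bp covered in Grin1, 85.2% lay in the last 20% of the window, and the 400 bp stretch was the main part of it. In the list, 11.23% of stretches were 400 bp or longer. Of tiles of 31 kb, 11.5% held at least 1 stretch, 2.98% held 3 or more, and 2.53% had 675 bp or more covered. Among tiles with a stretch, 26.0% held 3 or more. In the RefSeq table, the coding gene Lrrc26 and the long noncoding gene Grin1os both overlap the 3′ part of Grin1. Whether either of them reaches the 2 stretches near the 3′ border in mm9 was not checked. Those 2 stretches therefore cannot be assigned to Grin1 alone from a list without strand.

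Across the 5 genes, 7 of 17 stretches (41.2%) lay in the last 20% of a window, 2 in the first 20% and 8 between. The last 20% was reached in 4 of 5 genes, Drd1 being the exception. The 8 stretches in between came from only 2 genes, 6 from Drd1 and 2 from Kcnj6. The first 20% was reached in Kcnj6 and Grin1, each by a short stretch of 125 and 100 bp. Gene ends in mm9 were not used, so these shares refer to windows and not to transcripts. The same shares over all genes were not computed. Whether 41.2% of stretches or 4 of 5 genes is many or few was therefore not tested.

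**Figure D4:**
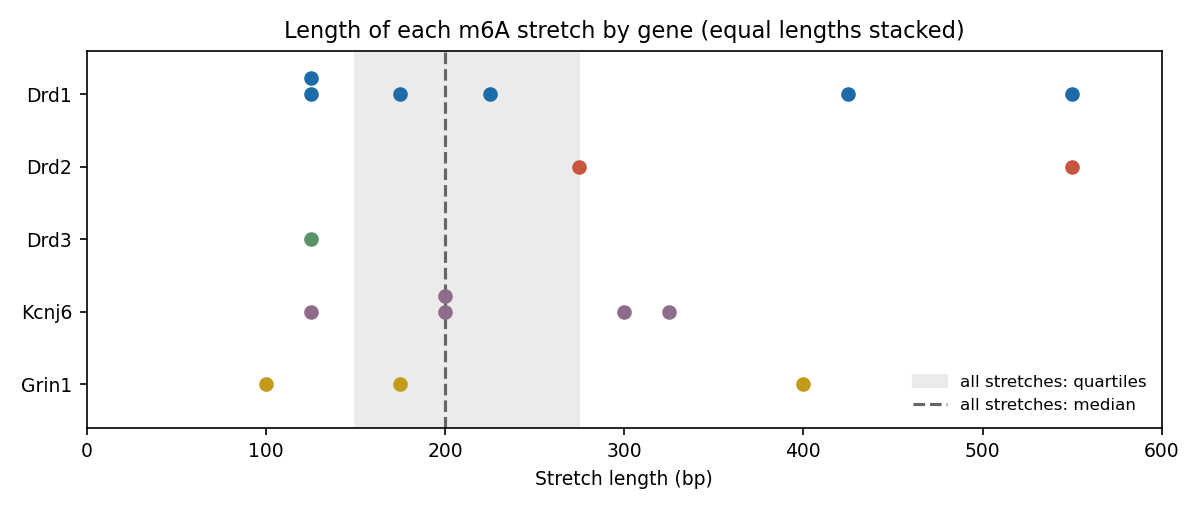
Length in bp of each of the 17 stretches (points) by gene, with the median (dashed line) and the interquartile range (shaded) of all 19404 stretches in the list. Drd1 and Drd2 each have a stretch of 550 bp, while that of Drd3 is 125 bp long.

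In length, the stretches of the 5 genes lay around the middle of the list. Their median was 200 bp, as was that of all stretches, and they ran from 100 to 550 bp. More than 1 listed peak, meaning over 200 bp, was needed for 8 of 17 (47.1%), against 40.5% in the list. Within this set the longer stretches were shared out unevenly: both in Drd2 exceeded 200 bp, as did 3 of 6 in Drd1, 2 of 5 in Kcnj6, 1 of 3 in Grin1 and none in Drd3. Stretches within a window may come from the same transcripts and were not treated as independent, so no test was made on them.

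The list was also read around the windows, since gene ends in mm9 were not used. Widening each window by 2 kb on both sides added no peak to any of the 5 genes. That cannot show whether a stretch inside a window belongs to a neighbouring gene. Beyond the 3′ border, the nearest stretch was 1081.2 kb away for Drd1, 93.1 kb for Drd2, 53.2 kb for Kcnj6, 38.0 kb for Drd3 and 16.2 kb for Grin1. Beyond the 5′ border the distances ran from 30.0 kb for Grin1 to 718.6 kb for Kcnj6, with 50.0 kb for Drd1. In the RefSeq table, the nearest coding gene on the 3′ side that does not overlap is Msx2 for Drd1 and Ankk1 for Drd2. It is Qtrt2 for Drd3, Dyrk1a for Kcnj6 and Tmem210 for Grin1. Apart from Gm46111, Lrrc26 and Grin1os, named above, the table has no gene that overlaps any of the 5.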

How the data were processed

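RNA from midbrain and striatum of Fto knockout mice gave 3 MeRIP and 3 input libraries, and the authors deposited 1 list with chromosome, start and end of each peak. The submitters' processing notes name the build mm9 and the tools SAMtools 0.1.18 and BWA 0.6.2-r126. Depth is unknown, and not given in the sources used here are the peak caller, its threshold and how input and replicates entered. Positions are printed 1-based in mm9. Windows in mm9 were taken as given for the 5 genes, which were all named, and strand, neighbours and overlapping genes came from RefSeq tables of GRCm38.p6, of which no coordinate was used in mm9. Touching peaks were merged. The 3′ end was the last 20% of the window. Tiles of each window's length lay between the first and last stretch of each chromosome. The genes, windows and measures were chosen with earlier results of these data known. Lists of other dopamine and receptor genes and of cell type markers were not counted, for want of an mm9 annotation. Merging and tiling were tested on simulated stretches. Python 3.11.15, numpy 2.4.6, pandas 2.3.3 and matplotlib 3.10.9 were used.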

Additional observations from a re-analysis of the deposited data

How the results depend on the processing

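The counts moved with the minimum length, with merging and with the way the 3′ end was drawn. Without merging, there were 11 peaks in Drd1 and 5 in Drd2, all 5 of the latter in the last 20% of the window. With stretches of at least 150 or at least 200 bp, Drd3 fell to 0 stretches, 0 bp and 0 in the last 20%, so that 1 gene had no stretch. At 200 bp, Drd1 kept 3 stretches against 4 in Kcnj6, and Grin1 kept 1 stretch of 400 bp, which was 1 in the last 20%. With the last 33.3% in place of the last 20%, Drd1 had 1 stretch there. Within 10 kb of the 3′ border, a distance chosen after seeing the data, it had 6 and Kcnj6 had 0. The whole Drd1 window is 8 kb long, so its 6 was fixed in advance. Tiles of the gene's own chromosome alone held a stretch in 2.77% (Drd1), 25.9% (Drd2), 18.7% (Drd3), 41.2% (Kcnj6) and 12.8% (Grin1). The other 93 of 116 values stayed within 1.5 times the reported count or within the 95% binomial interval of the reported share. No paired analysis was possible because 1 list stands for all libraries, which also kept any library from being left out.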
